A study of Mus musculus with 16 samples.

Results

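Retinoid metabolism was followed through 9 genes, Retsat, Rbp4, Lrat, Stra6, Aldh1a1, Aldh1a2, Cyp26a1, Dhrs3 and Rdh10, chosen by gene symbol from 19505 named genes on an Affymetrix mouse array. Each had 1 probe set and so 1 value per library. The 16 libraries came from male C57BL/6J mice, an inbred laboratory strain, at the age of 14 weeks. The F1 groups, 4 livers and 4 samples of the adipose depot that the labels call eWAT, were offspring of obese males and control females. Those males had eaten a high-fat diet of 45% lipids for 12 weeks, from the age of 8 weeks. The CT groups, again 4 livers and 4 eWAT samples, were offspring of control males, kept on chow for the same 12 weeks, and of control females. The labels used here do not state the offspring's own diet or whether any of them shared a father, litter or cage, so the error terms describe the spread between these libraries. Values are deposited log2 expression values, and differences are F1 minus CT.

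Vitamin A circulates as retinol bound to the carrier Rbp4 and is stored as retinyl ester, mainly in hepatic stellate cells and also in adipocytes. Inside cells, retinol is esterified by Lrat, saturated by Retsat to dihydroretinol, or oxidised reversibly to retinal, which Aldh1a enzymes oxidise further to retinoic acid. Retinoic acid binds nuclear receptors and induces genes that include those of its own removal, among them Cyp26a1. In mouse, Retsat has also been described as a target of the nuclear receptor PPAR gamma in adipocytes and as an influence on the glucose-responsive factor ChREBP in liver.

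RefSeq's table of assembly GRCm38.p6 held windows of 250 bases before a transcript start for 8 of the 9 genes, 15 windows in all, and none for Rdh10. Retsat is shown because it had the largest difference relative to its error in liver, and Cyp26a1 because its window alone among the 15 held a retinoid receptor repeat. The Retsat window is chr6:72598352-72598601 on the plus strand, with the letters TATAAA in capitals. The Cyp26a1 window is chr19:37697558-37697807 on the plus strand, with a direct repeat of receptor half-sites in capitals.
Retsat: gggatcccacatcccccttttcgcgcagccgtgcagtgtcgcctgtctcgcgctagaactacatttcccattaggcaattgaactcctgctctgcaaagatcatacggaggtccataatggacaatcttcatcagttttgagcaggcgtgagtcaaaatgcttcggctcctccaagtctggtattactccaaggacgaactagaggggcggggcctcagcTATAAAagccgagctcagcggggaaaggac
Cyp26a1: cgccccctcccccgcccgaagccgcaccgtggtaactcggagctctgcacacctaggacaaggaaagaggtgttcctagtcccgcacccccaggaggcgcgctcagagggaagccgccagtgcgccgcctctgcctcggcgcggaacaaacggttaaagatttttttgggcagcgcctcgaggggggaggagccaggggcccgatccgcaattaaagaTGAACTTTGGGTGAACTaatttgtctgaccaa
The half-sites searched were AGGTCA with its variants AGTTCA as well as GGGTCA plus GGTTCA, on both strands, alone and as direct repeats spaced by 1, 2 or 5 bases. The repeat of Cyp26a1 lies 32 to 16 bases before the start and reads on the opposite strand as half-sites spaced by 5, an arrangement that 0.0883% of 32851 promoters held. The Retsat window held 1 single half-site, 171 to 166 bases before the start on the opposite strand, and none of the 3 repeats. A single half-site occurred in 38.6% of promoters. The TATAAA of Retsat lies 30 to 25 bases before the start, and 7.59% of promoters held these letters. The E-box CACGTG, a motif bound by many helix-loop-helix factors, occurred in 6.02% of promoters and in 0 of the 15 windows.

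Some libraries held transcripts of other tissues. Adipoq, an adipocyte hormone, was 19.10 to 19.24 in eWAT F1, 18.95 to 19.10 in eWAT CT and at most 4.25 in any liver, while Alb, the albumin gene of hepatocytes, stood at 19.93, the highest value of the table, in every liver. Exocrine pancreas transcripts marked liver F1 4, with a list median of 10.77, against 4.04 to 4.36 in the other F1 livers and 4.06 to 4.88 in CT livers. Skeletal muscle transcripts faintly marked liver F1 1 and 2, with list medians of 4.84 and 4.79. The other F1 livers had 3.86 and 3.85, and CT livers 3.75 to 3.90. All these medians are dim, below the median of any liver library (5.21 to 5.24). Of the list's 7 genes tested in liver 1 had an unadjusted p under 0.05. Acta1 of this list was 4.86 in F1 1 and 5.39 in F1 2, but also 4.85 in CT 3. In eWAT the muscle list had medians of 5.44 in CT 1 and 4.81 in CT 4, against 3.96 and 3.79 in the other CT samples. Its medians were 3.32 to 4.08 in F1 eWAT. Of its 7 genes tested in eWAT 6 had a lower mean in F1. An unadjusted p under 0.05 was met by 4 of the 7, beside 10% of all genes. Yet Acta1 was highest in F1 4, at 11.04, against 8.75 to 10.71 in CT. Seminal vesicle transcripts marked eWAT F1 1, with a list median of 12.56 against at most 3.45 in the other eWAT libraries. Sperm transcripts marked eWAT CT 4, with a list median of 9.88 against at most 3.24 in the other eWAT libraries. The hepatocyte list had medians of 9.38 to 13.33 in eWAT F1 and 6.89 to 12.35 in eWAT CT. Values without liver F1 4, without liver F1 1 and 2, and without eWAT F1 1 and CT 4 are given beside the main counts and differences. Shares of all genes at an unadjusted p under 0.05 come from the full fits and were not counted in these smaller ones. Fewer libraries also lower the power, so a smaller count there cannot be read as an effect of the foreign transcripts. The sample eWAT CT 1 was left out only in the fits with 1 library left out.

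The levels of each gene in the 4 groups come first. The median log2 value of a library was between 5.21 and 5.24 for livers and between 6.34 and 6.56 for eWAT, so the tissues appear to have been normalized separately, and levels were set across tissues without a test, beside the percentile of the value within its library. Retsat averaged 13.26 ± 0.37 in liver F1 and 14.59 ± 0.26 in liver CT (SD, n = 4 each), with median percentiles of 95 and 97.3. In eWAT it averaged 12.30 ± 0.59 in F1 and 11.96 ± 0.27 in CT (SD, n = 4 each), with median percentiles of 90 and 88.3. Retsat was thus highest in the CT livers, then in the F1 livers, and lowest in both eWAT groups, which overlapped each other.

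Rbp4, Lrat, Aldh1a1, Cyp26a1 and Rdh10 also stood higher in liver, both by value and by percentile. Lrat had median percentiles of 87.5 in liver F1 and 85.3 in liver CT, against 40 in eWAT F1 and 37.3 in eWAT CT. Cyp26a1, which hydroxylates retinoic acid for removal, had 61.6 in liver F1 and 64.9 in liver CT, against 7.5 in eWAT F1 and 9.6 in eWAT CT. Aldh1a2, a retinal dehydrogenase of mesenchyme and mesothelium, had the opposite order. Its median percentiles were 27.5 in liver F1 and 31.3 in liver CT, against 58.6 in eWAT F1 and 60.4 in eWAT CT. Dhrs3, which reduces retinal back to retinol, lay between the percentiles of 97.1 and 98.8 in all 16 libraries. Stra6, a membrane receptor that takes up retinol from Rbp4, lay between 31.6 and 45.9 in all 16.

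**Figure D1:**
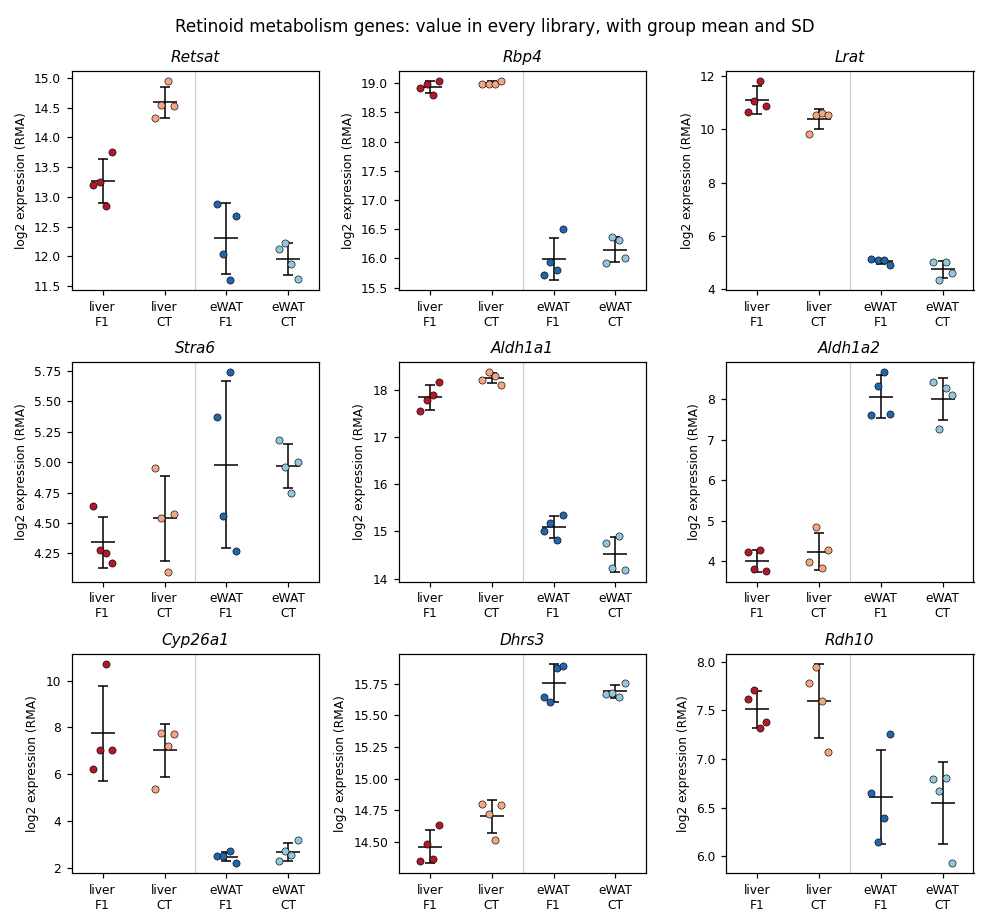
Deposited log2 value of each of the 9 genes in every library (points), with the group mean (long bar) and SD (short bars), for F1 and CT offspring in liver and eWAT. The F1 livers sit below all CT livers for Retsat (12.84 to 13.75 against 14.33 to 14.95) and above them for Lrat (10.66 to 11.82 against 9.83 to 10.62). Axes do not start at 0.

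In liver, Retsat had the largest difference of the set relative to its error. It was 2.51-fold lower on average in F1 than in CT and lower in every F1 liver than in any CT liver, but its adjusted p missed the threshold of 0.05. Lrat was higher in every F1 liver than in any CT liver, and the mean of Aldh1a1 was lower in F1 livers, neither with an adjusted p near the threshold. None of the 9 genes passed limma's test at an adjusted p under 0.05, where 0.157% of the 14683 genes tested did. An unequal-variance test per gene passed 0 of all genes tested, so its 0 of the 9 says nothing about the set. At an unadjusted p under 0.05 there were 3 of 9, Retsat, Lrat and Aldh1a1, beside 9.15% of all genes. The groups were apart for 2 of 9, Lrat with F1 above and Retsat with F1 below, beside 5.38% of all genes, 2.68% with F1 above and 2.70% with F1 below. In F1 livers 2 of the 9 had a higher and 7 a lower mean, with a median difference of -0.20, where that of all genes tested was 0.

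Retsat, the saturase that turns retinol into dihydroretinol, was 13.20, 13.25, 12.84 and 13.75 in the F1 livers, against 14.33, 14.55, 14.95 and 14.52 in the CT livers. Every F1 liver lay below every CT liver, and F1 4 came nearest to the CT range. The difference was -1.33 with a standard error (SE) of 0.22 and a 95% interval of -1.81 to -0.84. It ranked 27 by p among all genes tested, with an adjusted p of 0.0592 from limma. An exact two-sided permutation test over the 8 livers gave p = 0.0286, the smallest that its 70 splits allow. Without F1 4, the liver with pancreas transcripts, the difference was -1.49 and passed, with an adjusted p of 0.0414 from limma. Without F1 1 and 2, the livers with muscle transcripts, it was -1.29 with an adjusted p of 0.284 from limma. In bulk tissue, fewer cells that express a gene and less of its RNA per cell cannot be told apart.

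Neither transport gene separated the groups. Rbp4, the plasma carrier that hepatocytes secrete with retinol, was 18.91, 18.98, 18.79 and 19.03 in the F1 livers, against 18.98, 18.98, 18.98 and 19.04 in the CT livers. The groups overlapped, and the values lay close to the top of the scale. The difference was -0.07 with a 95% interval of -0.36 to 0.23. Stra6, the retinol receptor, was 4.64, 4.28, 4.25 and 4.17 in the F1 livers, against 4.95, 4.54, 4.10 and 4.57 in the CT livers. These dim values overlapped, and the difference was -0.21 with a 95% interval of -0.65 to 0.24.

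Lrat, which esterifies retinol for storage, was 10.66, 11.05, 11.82 and 10.87 in the F1 livers, against 9.83, 10.52, 10.62 and 10.55 in the CT livers. The groups did not overlap, although F1 1 exceeded CT 3 only narrowly, and F1 3 was the highest liver. The difference was 0.72 with an SE of 0.27 and a 95% interval of 0.11 to 1.33, with an adjusted p of 0.481 from limma. Without F1 4 it was 0.8 and without F1 1 and 2 it was 0.96. Lrat is a defining transcript of hepatic stellate cells, the liver's retinoid-storing cells. The list of stellate cell markers, which includes Lrat, had medians of 7.34 to 7.90 in F1 livers and 7 to 7.37 in CT livers. Of its 15 genes on the array, 11 had a higher and 4 a lower mean in F1 livers, and 0 passed. At an unadjusted p under 0.05 there were 2, beside 9.15% of all genes. Of its other markers, Ngfr (7.34 to 8.27 in F1 livers and 7.18 to 8.02 in CT livers), Colec11 (6.93 to 7.93 and 6.85 to 7.37) and Des (5.13 to 5.50 and 4.68 to 5.43) had higher means in F1. Reln (9.96 to 11.01 in F1 livers and 10.58 to 11.14 in CT livers) had a lower one, and all 4 overlapped. The part of these cells in the Lrat difference was not tested.

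Among the enzymes that interconvert retinol and retinal, Rdh10, which oxidises retinol to retinal, was 7.62, 7.71, 7.32 and 7.38 in the F1 livers, against 7.78, 7.95, 7.60 and 7.07 in the CT livers. The groups overlapped, and the difference was -0.09 with a 95% interval of -0.55 to 0.37. Dhrs3, which works in the reverse direction, was 14.35, 14.48, 14.36 and 14.63 in the F1 livers, against 14.80, 14.72, 14.51 and 14.79 in the CT livers. Its groups overlapped between F1 4 and CT 3 alone. The Dhrs3 difference was -0.25 with a 95% interval of -0.57 to 0.07 and an adjusted p of 0.658 from limma.

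Aldh1a1, the main retinal dehydrogenase of hepatocytes, was 17.54, 17.78, 17.89 and 18.17 in the F1 livers, against 18.20, 18.37, 18.30 and 18.11 in the CT livers. F1 4 alone lay above a CT liver. The difference was -0.40 with an SE of 0.17 and a 95% interval of -0.77 to -0.03, with an adjusted p of 0.512 from limma. Without F1 1 and 2, the livers with muscle transcripts, it was -0.21. Aldh1a2 was 4.22, 3.81, 4.28 and 3.77 in the F1 livers, against 3.99, 4.85, 3.84 and 4.28 in the CT livers. These values lay near the dim limit of 3.91 and overlapped, with a difference of -0.22 and a 95% interval of -0.75 to 0.31.

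In liver, Cyp26a1 varied more between the libraries of a group than any other of the 9 genes. It was 6.21, 7.03, 10.72 and 7.02 in the F1 livers, against 5.38, 7.78, 7.20 and 7.71 in the CT livers. Only F1 3 lay above the CT range, and F1 3 was also the liver with the highest Lrat and the lowest Retsat. The difference was 0.73 with an SE of 0.91 and a 95% interval of -1.29 to 2.75, with an adjusted p of 0.866 from limma. Without F1 3 it was -0.26, which reverses its direction, and without F1 1 and 2 it was 1.85.

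**Figure D2:**
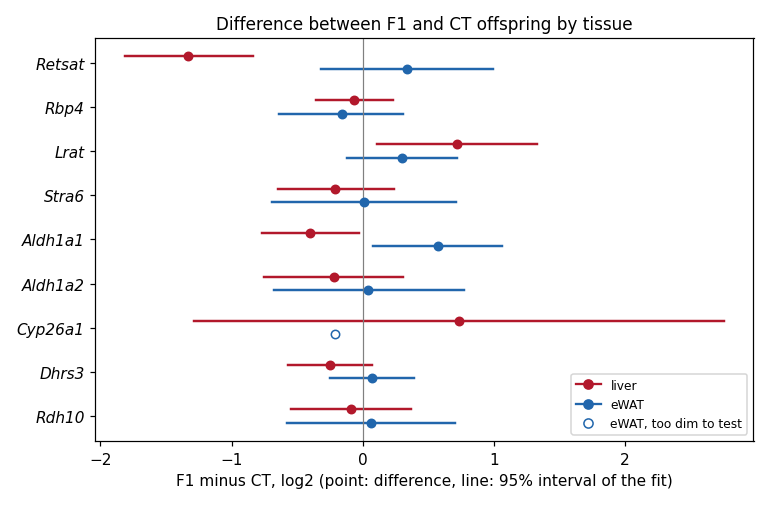
Difference between F1 and CT offspring (F1 minus CT, log2) for each of the 9 genes in liver and eWAT, as a point with the 95% interval of the limma fit as a line. The liver interval of Retsat runs from -1.81 to -0.84, the liver and eWAT intervals of Aldh1a1 lie on opposite sides of 0, and Cyp26a1 in eWAT was too dim to test.

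The rest of the pathway was read from 7 lists of transport, storage, interconversion, oxidation, breakdown, carotenoid and receptor genes, with the 9 genes above left out. Of 64 listed genes 56 were on the array and 49 were bright enough to test in liver. Their means were higher in F1 livers for 22 and lower for 27, with a median difference of -0.04. None passed limma's test, and at an unadjusted p under 0.05 there were 5 higher and 11 lower, beside 4.48% of all genes higher and 4.67% lower. There were 5 higher and 6 lower without F1 1 and 2, the livers with muscle transcripts. Without F1 4, the liver with pancreas transcripts, there were 6 higher and 8 lower. These fits had fewer livers, and the share of all genes was not counted in them. Several genes named here, such as the Ces1 and Cyp4a enzymes, have close relatives, and a probe set may read more than 1 of them.

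Retinyl ester hydrolases and related esterases held the smallest p of these lists in liver. Ces1g, a carboxylesterase of hepatocytes, was 13.62, 13.48, 13.41 and 13.33 in the F1 livers, against 14.27, 14.89, 14.30 and 14.79 in the CT livers. The groups did not overlap, and the difference was -1.10 with an SE of 0.18 and an adjusted p of 0.0619 from limma. Its relatives Ces1e and Ces1d had differences of -0.77 (SE 0.19) and -0.50 (SE 0.14), again without overlap. Pnpla2, the lipase also called Atgl, had a difference of 0.66 (SE 0.18) in the other direction, also without overlap. Of the 8 storage and hydrolysis genes tested 3 had a higher and 5 a lower mean in F1 livers, with a median of -0.31.

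Of the 14 further interconversion genes tested in liver, 4 had a higher and 10 a lower mean in F1, with a median of -0.11. At an unadjusted p under 0.05 there were 5, all lower, beside 4.67% of all genes lower. Dhrs4, a carbonyl reductase that acts on retinal, was 12.80, 12.84, 12.51 and 13.06 in the F1 livers, against 13.31, 13.46, 13.45 and 13.11 in the CT livers. F1 and CT livers did not overlap, and the difference was -0.53 with an SE of 0.17. Rdh14 (-0.69) and Rdh16 (-0.62), both retinol dehydrogenases, and the aldo-keto reductase Akr1b8 (-0.47) had lower means with overlapping groups. Without F1 1 and 2, the livers with muscle transcripts, the Rdh14 difference was -0.24. Of the 5 retinal oxidation genes 4 had a lower mean, among them Aox1, an aldehyde oxidase, with -0.67 (SE 0.24) and Aldh8a1, which oxidises 9-cis-retinal, with -0.38 (SE 0.15). At an unadjusted p under 0.05 there were 2 of these 5, both lower, beside 4.67% of all genes lower. There were 0 without F1 4 and 1 without F1 1 and 2, where Aox1 was -1.05. Fabp5, which carries retinoic acid and fatty acids, had a higher mean by 1.29 (SE 0.51) with overlapping groups, and by 0.73 without F1 1 and 2. Without these livers 2 interconversion genes had a higher and 12 a lower mean, with 1 at an unadjusted p under 0.05.

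Genes that retinoic acid induces were read from another list of 14, of which 10 could be tested in liver. It shares genes with the 7 lists above, among them Cyp26b1 and Rarb. In F1 livers 7 had a higher and 3 a lower mean, with a median of 0.30. At an unadjusted p under 0.05 there were 3, all higher, beside 4.48% of all genes higher. Cyp26b1, the relative of Cyp26a1 in retinoic acid breakdown, was 8.07, 9.44, 10.25 and 8.26 in the F1 livers, against 5.23, 6.09, 8.20 and 6.13 in the CT livers. Only CT 3 reached into the F1 range, and F1 3 was again the highest liver. The difference was 2.59 with an SE of 0.64 and an adjusted p of 0.223 from limma. Rarres1, named for its response to retinoid, had a difference of 1.02 (SE 0.31), and Tgm2, the tissue transglutaminase, one of 0.51 (SE 0.21), both with overlapping groups. Rxra, a retinoid X receptor, belongs to the list of receptors and cofactors and not to this one. That list had 5 higher and 5 lower means in F1 livers, with a median of 0.02. Only Rxra among the 10 tested had an unadjusted p under 0.05, a share near the 9.15% of all genes. Rxra was 13.85, 14.16, 13.92 and 14.24 in the F1 livers, against 13.63, 13.68, 13.56 and 13.59 in the CT livers. Its groups did not overlap, as for 5.38% of all genes, and the difference was 0.43 with an SE of 0.15. For the list of induced genes the median without F1 4 was 0.09, with 6 genes higher and 4 lower. Without F1 1 and 2 it was 0.48, with 5 genes at an unadjusted p under 0.05.

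Lists of PPAR and ChREBP targets were read as neighbours of the pathway. PPAR gamma targets, the list of the factor named above for adipocytes, had 9 higher and 6 lower means in F1 livers among 15 tested and a median of 0.06. At an unadjusted p under 0.05 there were 3 higher and 5 lower, beside 4.48% of all genes higher and 4.67% lower. The median thus covers means in both directions, and the lowest adjusted p of the list was 0.255 from limma. Pnpla2 (0.66) was among the higher and Plin4 (-1.02) among the lower, both without overlap. Of 18 PPAR alpha targets tested in liver 16 had a lower mean in F1 and 2 a higher one, with a median of -0.52, and 10 had an unadjusted p under 0.05, all lower. Acaa1b, a peroxisomal thiolase, had a difference of -1.37 (SE 0.25, adjusted p 0.0833 from limma). Cyp4a14, a fatty acid hydroxylase, had one of -4.89 (SE 1.04), and Ehhadh, of peroxisomal beta-oxidation, one of -1.16 (SE 0.25). Of 19 ChREBP targets 16 had a lower mean and 3 a higher one, with a median of -0.74, and 10 had an unadjusted p under 0.05, all lower. Among them Me1, the malic enzyme, had a difference of -1.24 (SE 0.24), Fasn, the fatty acid synthase, one of -1.36 (SE 0.36) and Pklr, the liver pyruvate kinase, one of -1.34 (SE 0.40). None of these genes passed the test, and 4.67% of all genes were lower at an unadjusted p under 0.05. Without F1 1 and 2 such genes numbered 6 for PPAR alpha and 5 for ChREBP targets, and Fasn was -0.88 and Pklr -0.82. That fit had fewer livers, and the share of all genes was not counted in it. The medians without them were -0.28 for PPAR alpha targets and -0.14 for ChREBP targets, and without F1 4 they were -0.82 and -0.85.

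**Figure D3:**
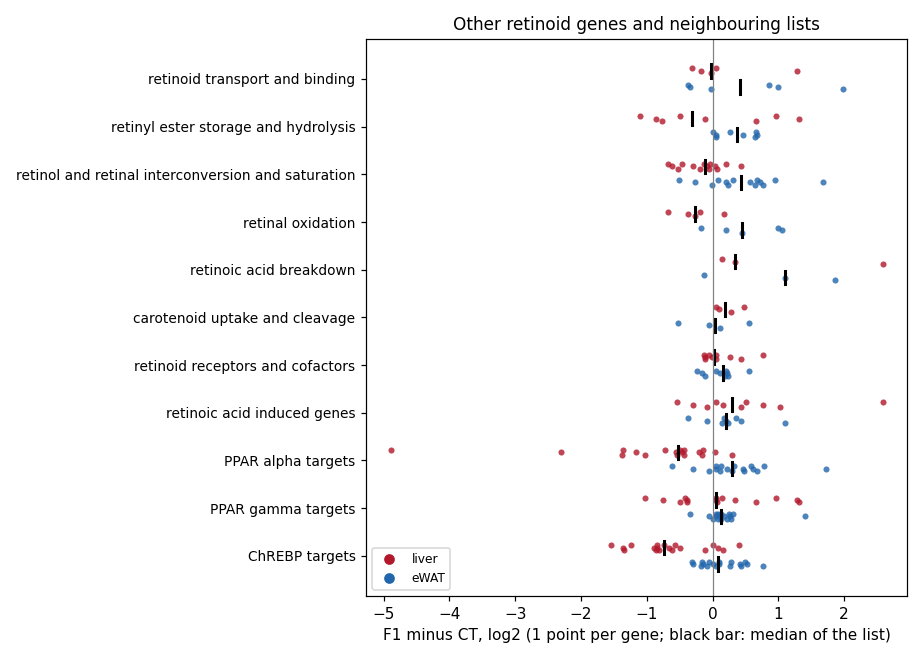
Differences (F1 minus CT, log2) of the other retinoid genes and of 4 neighbouring lists in liver and eWAT, 1 point per gene, with the median of each list as a black bar. In liver the medians are -0.52 for PPAR alpha targets and -0.74 for ChREBP targets, and in eWAT they are 0.30 and 0.08.

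In eWAT, Aldh1a1 was the gene of the set with the smallest p and had a higher mean in F1 than in CT, while Retsat, which had the lower values in F1 livers, did not separate the groups. None of the 8 genes tested passed limma's test, which 0% of the 14629 genes tested passed. An unequal-variance test per gene likewise passed 0 of all genes, so neither result is particular to the set. At an unadjusted p under 0.05 there was 1 of 8, beside 10% of all genes. The groups were apart for 0 of 8, beside 5.95% of all genes, 2.93% with F1 above and 3.02% with F1 below. In F1 7 of the 8 had a higher mean and 1 a lower one, with a median of 0.06, where that of all genes was 0. Without F1 1 and CT 4, the samples with seminal vesicle and sperm transcripts, 5 had a higher and 3 a lower mean, and with the Alb level as a covariate 6 and 2, with 0 at an unadjusted p under 0.05 in both.

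Retsat was 12.88, 12.03, 11.60 and 12.67 in the F1 eWAT, against 12.12, 12.23, 11.87 and 11.62 in the CT eWAT. F1 1 and F1 4 lay above the CT range and F1 3 was the lowest of all 8. The difference was 0.34 with an SE of 0.29 and a 95% interval of -0.32 to 0.99, with an adjusted p of 0.713 from limma. Without F1 1, the sample with seminal vesicle transcripts, it was 0.14, without F1 4 it was 0.21, and without F1 1 and CT 4 it was 0.03. Leaving out F1 3 gave 0.57.

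Rbp4, which adipocytes also secrete, was 15.71, 15.94, 15.80 and 16.51 in the F1 eWAT, against 15.93, 16.36, 16.31 and 16.01 in the CT eWAT. The groups overlapped, with F1 4 above all others, and the difference was -0.16 with a 95% interval of -0.64 to 0.31. Stra6 was 5.37, 4.56, 5.74 and 4.27 in the F1 eWAT, against 5.18, 4.96, 4.75 and 5 in the CT eWAT. The F1 values lay on both sides of the CT range, with a difference of 0.01 and a 95% interval of -0.69 to 0.71. Lrat was 5.12, 5.08, 5.08 and 4.90 in the F1 eWAT, against 5.02, 4.34, 5.01 and 4.61 in the CT eWAT. Its groups overlapped, and the difference was 0.30 with a 95% interval of -0.12 to 0.72.

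Aldh1a1, expressed by adipocytes as well as hepatocytes, was 15.00, 15.18, 14.82 and 15.35 in the F1 eWAT, against 14.76, 14.22, 14.91 and 14.18 in the CT eWAT. The groups overlapped only in that CT 3 exceeded F1 3. The difference was 0.57 with an SE of 0.22 and a 95% interval of 0.08 to 1.06, with an adjusted p of 0.431 from limma. Hepatocyte transcripts were also higher on average in F1, for 15 of 15 list genes, 0 of them called and 1 at an unadjusted p under 0.05. Alb was 16.95, 18.77, 16.65 and 19.07 in the F1 eWAT, against 14.16, 12.43, 18.91 and 18.55 in the CT eWAT. With the Alb level as a covariate of the fit, the Aldh1a1 difference was 0.48, and without F1 1 and CT 4 it was 0.49. Adipocyte markers had list medians of 17.41 to 17.71 in F1 and 17.30 to 17.87 in CT, and macrophage markers 11.17 to 11.85 in F1 and 11.73 to 12.65 in CT.

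The remaining genes overlapped between the groups. Aldh1a2 was 7.60, 8.33, 8.66 and 7.64 in the F1 eWAT, against 8.43, 7.26, 8.27 and 8.09 in the CT eWAT, with a difference of 0.04 and a 95% interval of -0.68 to 0.77. Mesothelium, a source of Aldh1a2, had marker medians of 8.47 to 9.81 in F1 and 9.21 to 9.59 in CT. Dhrs3 was 15.65, 15.61, 15.88 and 15.89 in the F1 eWAT, against 15.67, 15.68, 15.65 and 15.76 in the CT eWAT, with a difference of 0.07 and a 95% interval of -0.25 to 0.39. Rdh10 was 6.65, 6.15, 6.39 and 7.26 in the F1 eWAT, against 6.79, 6.67, 6.81 and 5.93 in the CT eWAT. F1 4 was the highest and CT 4 the lowest sample for Rdh10, and the difference was 0.06 with a 95% interval of -0.58 to 0.70. Cyp26a1 was 2.20 to 2.71 in F1 and 2.29 to 3.17 in CT, below the dim limit of 3.52, and was not tested.

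Of the other retinoid genes 50 could be tested in eWAT, with 37 higher and 13 lower means in F1 and a median difference of 0.22. None passed, and at an unadjusted p under 0.05 there were 6 higher and 1 lower, beside 4.96% of all genes higher and 5.06% lower. There were 4 higher and 2 lower without F1 1 and CT 4, and the median was then 0.23. With the Alb level as a covariate, since hepatocyte transcripts were higher on average in F1, there were 10 higher and 1 lower and the median was 0.11. The share of all genes was not counted in either of these fits. Adh5, an alcohol dehydrogenase of class III, was 8.16, 7.91, 8.00 and 8.50 in the F1 eWAT, against 7.58, 7.50, 7.07 and 7.53 in the CT eWAT. Every F1 sample exceeded every CT sample, and the difference was 0.72 with an SE of 0.19. Adh1, which oxidises retinol, had a difference of 0.67 (SE 0.21) with overlapping groups, and Akr1b8 one of -0.51 (SE 0.20). Rbp7, a retinol-binding protein of adipose endothelium and adipocytes, had a difference of 0.86 (SE 0.31) with overlapping groups.

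All 8 storage and hydrolysis genes had a higher mean in F1 eWAT, with a median of 0.37. Among them Ces1d, a lipase of adipocytes and hepatocytes, was 14.07, 13.71, 13.63 and 13.46 in F1, against 13.22, 13.31, 13.13 and 13.32 in CT. Its groups did not overlap, and the difference was 0.47 with an SE of 0.17. Dgat1, which esterifies diacylglycerol and retinol, had a difference of 0.66 (SE 0.24), and one of 0.37 without F1 1 and CT 4. Without these samples 6 of the 8 were higher and 2 lower, with a median of 0.25, and with the Alb level as a covariate the median was 0.10. Cyp26b1 was 7.47, 7.72, 8.03 and 7.28 in the F1 eWAT, against 5.70, 7.23, 6.08 and 7.11 in the CT eWAT. The groups did not overlap, and the difference was 1.09 with an SE of 0.35 and an adjusted p of 0.397 from limma. Tgm2 had a difference of 0.44 (SE 0.15), also without overlap.

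Whether the F1 effect differed between tissues was tested as an interaction, liver effect minus eWAT effect, over 16 libraries. Mean differences had opposite signs in the tissues for every gene of the set except Rbp4 and Lrat. The share of all genes with opposite signs was not counted, so this is no trait of the set. In eWAT the differences of Stra6 (0.01), Aldh1a2 (0.04), Rdh10 (0.06) and Dhrs3 (0.07) were small, with intervals that included 0. Cyp26a1 was too dim to test there. The interaction terms of Retsat and Aldh1a1 had the smallest p of the set. None of the 9 genes passed at an adjusted p under 0.05 in limma, where 0.0752% of the 15957 genes tested did, and an unequal-variance form of the test also passed 0 genes. At an unadjusted p under 0.05 there were 2 of 9, both with a negative term, beside 9.52% of all genes, 4.80% positive and 4.72% negative. For Retsat the term was -1.66 with an SE of 0.37, a 95% interval of -2.45 to -0.87 and an adjusted p of 0.139 from limma. Without eWAT F1 3, the eWAT sample with the lowest Retsat, it was -1.89 and passed, with an adjusted p of 0.0358 from limma. In the other 23 of 24 alternatives it did not pass. Their adjusted p ran from 0.0502 with the trend and robust fit to 0.495 by the unequal-variance test. For Aldh1a1 the term was -0.97 with an SE of 0.28, a 95% interval of -1.56 to -0.38 and an adjusted p of 0.252 from limma. The other 7 had 95% intervals that included 0, the narrowest being Dhrs3 with -0.73 to 0.10 and the widest Cyp26a1 with -1.20 to 3.06.

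Genes whose level was most like that of Retsat were listed by Pearson r over the 8 libraries of a tissue, as a description, since the libraries share the split into F1 and CT. In liver the highest were H4c3, a histone gene with many near-identical copies (0.979), Rdh7, a retinol dehydrogenase (0.976), Shfl (0.968), Prkd3 (0.967) and Lepr, the leptin receptor (0.967). After each group's mean was removed, r to Retsat was 0.866 for H4c3, 0.850 for Rdh7 and 0.767 for Lepr. The lowest were Gvin1 (-0.989), an interferon-inducible GTPase, C4b (-0.984), a complement component, and Snx10 (-0.969). Rdh7 was 17.68, 17.73, 17.56 and 17.72 in the F1 livers, against 17.89, 17.94, 18.07 and 17.98 in the CT livers. Its values ran in a narrow range, lower in every F1 liver, and its close relatives may share the probe signal. Among the 9 genes themselves, Aldh1a1 had r = 0.82 to Retsat in liver, or 0.50 within groups, and Lrat had -0.69, or -0.21 within groups.

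**Figure D4:**
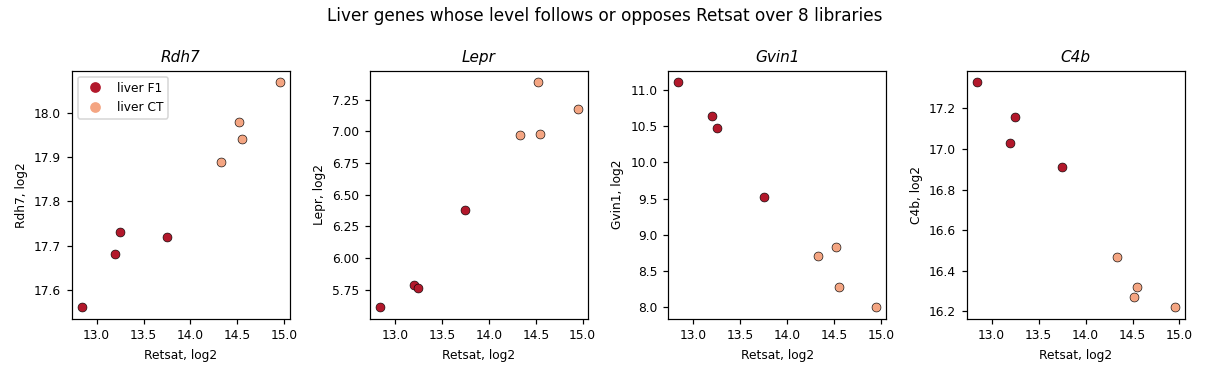
Level of 4 liver genes (vertical axes, log2) against that of Retsat (horizontal axes, log2) in the 8 liver libraries, coloured by group. Rdh7 (r = 0.976) and Lepr (r = 0.967) are higher where Retsat is higher, and Gvin1 (r = -0.989) and C4b (r = -0.984) are lower.

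In eWAT, where the groups overlapped for Retsat, the highest were Glb1l (0.953), Bag2, a co-chaperone (0.941), Tyw5 (0.937), Epas1, the hypoxia factor also called HIF-2 alpha (0.932), and Mrfap1 (0.930). The lowest were Dusp9, a MAP kinase phosphatase (-0.942), Spc24, of the kinetochore (-0.939), and Mgrn1, a ubiquitin ligase (-0.936). None of the 8 liver genes appeared among the 8 of eWAT. Lists this short, out of 13482 genes in liver and 13698 in eWAT, would rarely share a gene anyway, so nothing is drawn from this. Of the 9 genes, Rdh10 had r = 0.63 and Aldh1a2 r = -0.69 to Retsat in eWAT. By Spearman's rho in place of Pearson's r, 0 of the 5 highest genes were shared in liver and 1 of 5 in eWAT.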

How the data were processed

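Expression was measured on Affymetrix mouse arrays from total RNA of 8 livers and 8 eWAT samples. The deposited values are log2 expression values, which the submitters' processing notes credit to RMA and to Transcriptome Analysis Console 4.0. By this method the authors' software corrects background, sets arrays to a common distribution and summarises probes. Arrays have no read depth, so their number limits the precision. Values ran from 1.47 to 19.93 over 22206 probe sets, of which 19572 had 1 symbol in the platform annotation and 2634 none. For the 55 symbols with several probe sets the brightest was kept.

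F1 was compared with CT within each tissue with limma 3.58.1 (lmFit and eBayes) in R 4.3.3. Dim genes, with a mean under the 25th percentile of the values in the fit, were not tested. Benjamini-Hochberg adjustment covered all genes tested, and a gene passed at an adjusted p under 0.05. The tissue difference was an interaction over 16 libraries. Adjusted p-values are limma's unless another test is named. Single genes also had an exact permutation test over samples.

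The 9 genes and all lists were chosen with earlier results of these data known, and the seminal vesicle and sperm lists after these values had been seen. From each further list up to 4 genes per tissue were eligible by smallest p, and those with an unadjusted p under 0.05 were candidates for naming. For likeness, the 5 highest and 3 lowest genes were named, passing over numbered gene models, small RNAs and chemosensory receptors. On simulated data for the liver comparison, with 14589 genes, the limma fit recovered 51.6% of 91 changes of 1 log2 unit and 89.4% of 85 changes of 2 units. For eWAT, with 14577 genes, it recovered 47.9% of 96 and 86.7% of 90. F1 and CT samples shared only replicate numbers, and whether the liver and eWAT of 1 number came from 1 animal is not stated, so the interaction counted 16 libraries as separate. Alternatives covered the dim filter, variance model, libraries in the fit, array weights, replicate block, scaling, test and leaving out each library. Leaving out the libraries with foreign transcripts together and the Alb covariate were chosen after seeing the data.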

Additional observations from a re-analysis of the deposited data

Results flagged for a closer look

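In 3 of the 36 groups of 4 libraries, 9 genes in each of 4 groups, 1 library lay far from the others by Dixon's criterion, which chance meets in about 5% of groups. Rbp4 in liver CT 4 was 19.04 where the other CT livers were at 18.98, a gap that is small in size. Lrat in liver CT 1 was 9.83, below the other CT livers at 10.52 to 10.62. Without that library the Lrat difference in liver stayed positive, as it did without any other liver, at 0.48 to 0.87. Rdh10 in eWAT CT 4, the sample with sperm transcripts, was 5.93, below the other CT samples at 6.67 to 6.81. Without it the Rdh10 difference in eWAT was -0.14. The part of the sperm transcripts in that value was not tested.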

How the results depend on the processing

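None of the 9 genes passed in the fits as reported. In liver 23 genes passed, 75 with a variance trend and robust fit, 51 with all 16 libraries in 1 fit, 6 with the replicate block, 0 by an unequal-variance test, 9 without F1 1 and 2, and 7 to 24 with 1 library left out. Of the 9 genes 1, Retsat, passed with the trend and robust fit, in the 16-library fit, with median centring and without F1 4 (0 to 1 with 1 library left out). The Retsat difference was -1.33 in each fit of all 8 livers, with adjusted p of 0.0031 (trend and robust), 0.0335 (16-library fit), 0.0441 (median centring), 0.237 (replicate block) and 0.439 (unequal-variance test). With 1 liver left out it was -1.49 to -1.19, with adjusted p of 0.0414 to 0.184. In eWAT 0 genes passed, 28 in the 16-library fit and 0 to 1 with 1 library left out (1 without CT 4 and 1 without F1 4). Retsat in eWAT was 0.14 to 0.57 with 1 library left out. For the interaction 12 genes passed, 32 with the trend and robust fit, 0 by the unequal-variance test and 7 to 28 with 1 library left out. The Retsat term was -1.89 to -1.47 with 1 library left out.

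Directions turned for 4 of the 9 genes, none of which had an unadjusted p under 0.05. In liver Cyp26a1 was -0.26 to 1.24 and Rdh10 -0.27 to 0.02 with 1 library left out. In eWAT Stra6 was -0.01 with array weights, -0.02 with median centring, -0.11 without F1 1 and CT 4, and -0.24 to 0.25 with 1 library left out. Aldh1a2 was -0.01 with quantile normalization, -0.07 with the Alb covariate and -0.21 to 0.20 with 1 library left out. Rdh10 was -0.08 with array weights, -0.16 without F1 1 and CT 4 and -0.15 to 0.22 with 1 library left out. With 1 library left out the interaction term was -0.46 to 0.03 for Stra6, -0.06 to 1.44 for Cyp26a1 and -0.33 to 0.06 for Rdh10. The cause was not tested. Ces1g, Acaa1b, Ehhadh, Me1 and Cyp26b1 in liver passed under an alternative only, for example Ces1g with the trend and robust fit (adjusted p 0.0041) and Cyp26b1 with the replicate block (0.0483). F1 and CT samples of the same number did not deviate together, with correlations of -0.05 to 0.05 in liver and -0.26 to 0.18 in eWAT. Between liver and eWAT they were 0.01 to 0.04 and the highest was that of the same number for 7 of 8 livers, a hint from the data, not from the labels. With the replicate block the interaction passed 9 genes, and the Retsat term was -1.66 with an adjusted p of 0.202. That block goes by number, so it also ties F1 to CT samples of the same number. Pairing of liver and eWAT within an animal was not tested.

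With 4 arrays per group, the intervals of the dim genes Stra6 and Aldh1a2 in liver say little about their change, and Cyp26a1 in eWAT was too dim to test. Rbp4 in liver lay close to the highest value of the table, 19.93.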

Other observations

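Of the genes that retinoic acid induces, some had their highest level of each group in F1 3 and CT 3. Rarb, a retinoic acid receptor that its own ligand induces, was 8.02, 7.61, 9.24 and 7.81 in the F1 livers, against 7.45, 7.10, 8.18 and 6.91 in the CT livers. F1 3 was the highest F1 liver and CT 3 the highest CT liver. Cyp26b1 followed the same order, with 10.25 in F1 3 and 8.20 in CT 3 as the highest of their groups, and so did Lrat, with 11.82 in F1 3 and 10.62 in CT 3. Cyp26a1 was highest in F1 3, at 10.72, but among the CT livers CT 2 was highest, at 7.78. Rarres1 and Tgm2 did not have this order, and were lowest of the CT livers in CT 3, at 9.68 and 10.77. Thrsp, a lipogenic gene of the ChREBP list, was 12.98, 13.74, 15.96 and 15.07 in the F1 livers, against 14.75, 14.72, 12.85 and 14.80 in the CT livers. F1 3 was the highest and CT 3 the lowest liver for Thrsp. These genes were chosen after their values had been seen, and no test was made of the pattern.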
